A study of Mus musculus with 18 samples.

Results

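The subject of these results is the interaction of LINC disruption with substrate rigidity in the miRNAs of NIH 3T3 fibroblasts: the difference between 308 and 1 kPa in cells with a disrupted LINC complex, minus the same difference in control cells. All 12 small RNA libraries without an inhibitor enter it, of 18 in the series, with 3 libraries in each of 4 groups. SUN1L cells on 308 kPa (stiff) and on 1 kPa (soft) expressed SS-HA-SUN1L-KDEL, a lumenal piece of SUN1 that acts as a dominant negative. KDEL cells on 308 kPa and on 1 kPa expressed a GFP retained in the endoplasmic reticulum. Both lines were made by retroviral transduction of NIH 3T3 TetON cells, a mouse embryonic fibroblast line. The study describes enrichment by fluorescence sorting for the KDEL line only. Every library, controls included, came from cells kept for 48 h with 1 µg/ml doxycycline on fibronectin-coated polyacrylamide gels. Each construct was carried by 1 stable line, so the construct and the line that carries it cannot be told apart. The 6 libraries left out are KDEL cells on 308 kPa with 10 µM blebbistatin or 25 µM Y27632. The study calls its replicates biological and the labels add nothing, and a p-value therefore speaks only of the spread among these libraries, which may be technical.

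LINC complexes bridge the nuclear envelope: SUN proteins of the inner membrane bind the lamina and hold nesprins of the outer membrane, which in turn bind actin, microtubules and intermediate filaments. Forces that a fibroblast develops on a rigid substrate reach the nucleus through them, and a soluble SUN lumenal domain occupies the nesprins and releases them from the envelope. A miRNA guides Argonaute to target mRNAs mainly through its seed, bases 2 to 8 from the 5′ end, so miRNAs that share a seed share most targets. Each hairpin precursor yields a 5p and a 3p arm, of which usually 1 is kept. The small RNA libraries do not measure the SUN1L construct itself.

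Values are the authors' normalized read values per mature miRNA, in which the lowest value is a floor of 1. Of 1900 mature names, 459 reached 10 in 3 or more of the 12 libraries, and these were tested as log2(value + 1). Reads per library, in units of 1e6, ran from 2.77 to 8.49, with the fewest in SUN1L 1 kPa replicate 2. The log2 level of the median tested miRNA lay between 7.38 and 7.71 for SUN1L cells on the stiff gel and between 5.49 and 6.75 on the soft one. For KDEL cells it lay between 7.49 and 7.66 on the stiff gel and between 6.76 and 6.98 on the soft one. The lowest of these, 5.49, belonged to SUN1L 1 kPa replicate 2, which also lay farthest out on the first principal component (71.0% of the variance), and its part in the results was not tested beyond leaving it out. Fibroblast miRNAs were abundant in all 12 libraries (miR-21a-5p took 19.3 to 40.2% of the summed values). Markers of other cell types were mixed. The neural miR-124 and the muscle miR-133b and miR-208 were at or next to the floor everywhere. The muscle miR-206-3p was at 319 to 955 and the neural miR-9-5p at 6423 to 20103. In whole cultures, fewer cells of a type and less RNA per cell cannot be told apart.

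**Figure D1:**
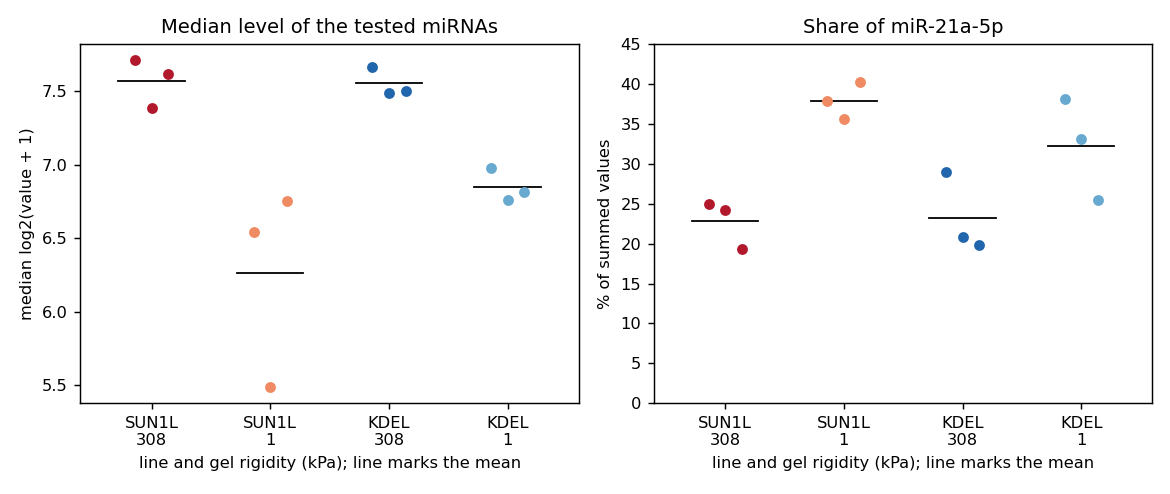
Median log2(value + 1) of the 459 tested miRNAs (left) and percent of summed values taken by miR-21a-5p (right), for the 3 libraries (points) and mean (line) of each group. The medians of the SUN1L libraries on 1 kPa, 5.49 to 6.75, lie below those of the other 3 groups.

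The sequences that the results turn on are printed first, grouped by seed. Whether the interaction goes by seed was not tested. They are RefSeq mature miRNAs (GRCm38.p6), 5′ to 3′, with the seed in capitals. Clusters of growth-promoting miRNAs supply the first set of equal seed, AAAGUGC:
miR-17-5p: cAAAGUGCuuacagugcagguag
miR-20a-5p: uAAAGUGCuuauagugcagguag
miR-93-5p: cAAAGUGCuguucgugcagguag
miR-106b-5p: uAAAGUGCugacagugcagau
The first 2 are made from the cluster on chromosome 14 (chr14:115043684-115043706 and chr14:115044183-115044205, plus strand), and the other two from its paralog within the bounds of Mcm7, a replication helicase gene on chromosome 5 (chr5:138165574-138165596 and chr5:138165787-138165807, minus strand).

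The next set shares AGCAGCA, the seed of the miR-15 and miR-16 family, which restrains cyclins and BCL2:
miR-15a-5p: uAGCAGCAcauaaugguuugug
miR-15b-5p: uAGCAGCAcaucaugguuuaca
miR-16-5p: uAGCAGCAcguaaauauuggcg
miR-195a-5p: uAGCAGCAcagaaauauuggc
miR-322-5p: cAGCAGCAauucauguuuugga
They come from 4 chromosomes: miR-15b-5p and a copy of miR-16-5p lie within Smc4 on chromosome 3 (chr3:69009775-69009796 and chr3:69009918-69009939), miR-15a-5p within the noncoding gene Dleu2 on chromosome 14 (chr14:61632075-61632096), miR-195a-5p on chromosome 11 (chr11:70235062-70235082) and miR-322-5p on chromosome X (chrX:53054306-53054327).

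The third set holds pairs whose seeds are equal (GCUACAU in miR-221 and miR-222, GAGAACU in miR-146a and miR-146b) and the arms of the miR-708 hairpin:
miR-221-3p: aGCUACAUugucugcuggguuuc
miR-222-3p: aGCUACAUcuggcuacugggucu
miR-146a-5p: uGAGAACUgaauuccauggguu
miR-146b-5p: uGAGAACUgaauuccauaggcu
miR-708-5p: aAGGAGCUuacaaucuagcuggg
miR-708-3p: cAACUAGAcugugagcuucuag
miR-221-3p and miR-222-3p sit side by side on chromosome X (chrX:19146307-19146329 and chrX:19146901-19146923), miR-146a-5p on chromosome 11 (chr11:43374435-43374456), miR-146b-5p on chromosome 19 (chr19:46342790-46342811) and both miR-708 arms within the bounds of Tenm4 on chromosome 7 (chr7:96249450-96249472 and chr7:96249496-96249517).

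Under the deposited scaling most miRNAs were higher on the stiff gel in both lines, and for most of them the difference was larger in SUN1L cells. In SUN1L cells 302 of 459 miRNAs rose on 308 kPa (65.8%) and 11 fell (2.4%), with a median log2 difference of 1.36 (limma, adjusted p under 0.05). In KDEL cells 1 rose (0.218%) and 0 fell, with 123 at an unadjusted p under 0.05 (119 of them higher), and the median was 0.53. That count of 1 rests on the fit: it was 143 without SUN1L 1 kPa replicate 2, 194 with array weights, 96 when the 3 runs of library numbers in the labels, 1 library of each group in every run, entered as a term, and 0 with no pseudocount. The 1 miRNA called there was miR-15a-3p, the less abundant arm of the miR-15a hairpin. Both differences were positive for 370 miRNAs, and for 346 of these the one in SUN1L cells was larger. Both were negative for 45, 35 were higher on the stiff gel in SUN1L cells and lower in KDEL cells, and 9 were the reverse. Under median-of-ratios scaling, described below, both were positive for 203 and both negative for 184, with 72 of opposite sign. Across miRNAs the 2 differences, which share no library, correlated with r = 0.81 (Spearman's rho = 0.83, n = 459). On the stiff gel all 3 libraries were above all 3 of the soft gel for 304 miRNAs in SUN1L cells (66.2%) and 191 in KDEL cells (41.6%), and below them for 17 (3.7%) and 10 (2.18%). The correlation is a description, since miRNAs of 1 library share its depth and scaling.

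**Figure D2:**
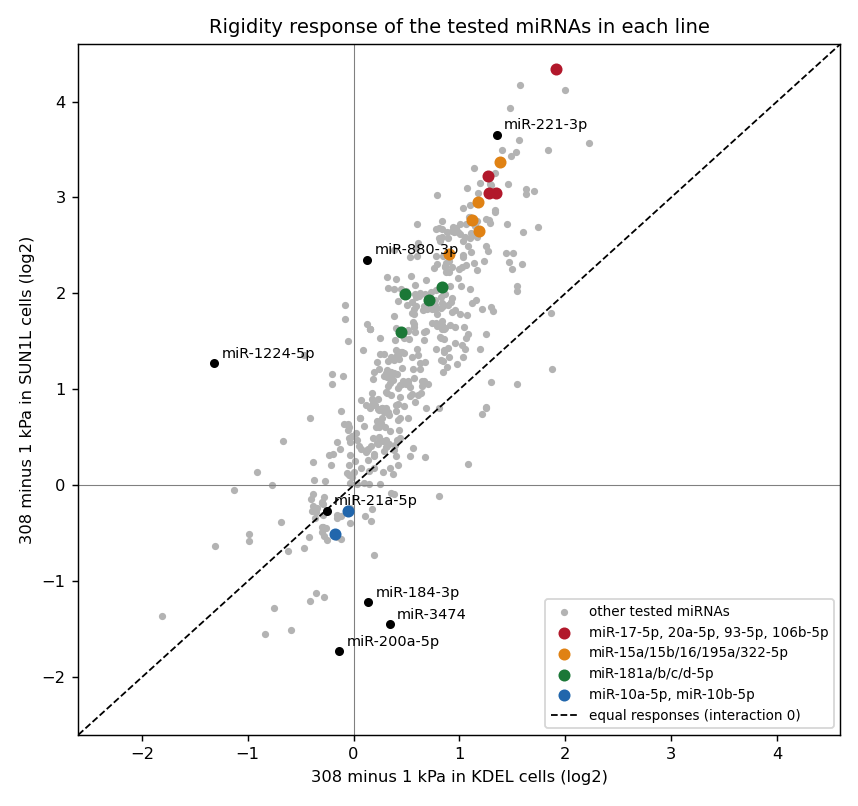
Log2 difference between 308 and 1 kPa of each tested miRNA in SUN1L cells (vertical) and KDEL cells (horizontal). Points above the dashed line have a positive interaction. The families of seeds AAAGUGC and AGCAGCA lie high above it, miR-21a-5p lies on it, and miR-184-3p, miR-200a-5p and miR-3474 lie below it.

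The difference of the differences had a median of 0.78 on the log2 scale, ranged from -1.79 to 2.60 and was positive for 398 miRNAs and negative for 61. It exceeded 1 for 181 miRNAs and was under -1 for 3. No miRNA was called (0 of 459, 0%), and the smallest adjusted p was 0.097, followed by 0.115 for 31 miRNAs at once (limma with Benjamini-Hochberg adjustment). At an unadjusted p under 0.05 there were 122 higher (26.6%) and 3 lower (0.654%), where 5% of 459 is 22.95. With the runs as a term 68 were called, all of them higher (14.8%, smallest adjusted p of 0.030), and 0 with the runs under either other scaling. The SE of a single interaction had a median of 0.57.

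The shared shift depends on how libraries are scaled. Under median-of-ratios factors, which centre the libraries on their typical miRNA, the median interaction was 0.03, with 233 miRNAs positive, and 41 were higher (8.93%) and 33 lower (7.19%) at an unadjusted p under 0.05. Quantile normalization gave a median of 0.01, with 51 higher and 31 lower. Neither called a miRNA (smallest adjusted p of 0.241 and 0.176). Interactions below are under the deposited scaling, most with the value under median of ratios beside it, where the typical miRNA is at about 0. SUN1L calls between the gels were 121 higher and 94 lower under median of ratios. Without SUN1L 1 kPa replicate 2 the deposited median was 0.48, again with 0 called (smallest adjusted p of 0.0584) and 105 at an unadjusted p under 0.05.

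Seen by substrate under the deposited scaling, the same 12 libraries place most of the difference of the lines on the soft gel. Its dependence on the other scalings and on SUN1L 1 kPa replicate 2 was not tested. SUN1L cells differed from KDEL cells by a median of 0.08 on 308 kPa, with 18 miRNAs called higher and 0 lower. On 1 kPa the median was -0.70, with 30 called higher and 161 lower. The miRNAs named in the next paragraphs are mostly of 1 kind, at similar levels in both lines on the stiff gel and lower in SUN1L cells on the soft gel.

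The miR-17 clusters and their paralogs, which promote proliferation, stood highest of the lists described. Of 28 listed members 17 were tested. All 17 rose on the stiff gel in SUN1L cells (background 65.8%) and 0 were called in KDEL cells, with a median log2 difference of 2.58 in SUN1L cells and 1.17 in KDEL cells. Their median interaction was 1.46, against 0.78 over all tested miRNAs (0.70 against 0.03 under median of ratios), and 10 of 17 were higher at an unadjusted p under 0.05 (background 26.6%, and 5 of 17 against 8.93% under median of ratios). miR-17-5p had 16608, 15648 and 19547 in SUN1L cells on 308 kPa and 1684, 270.3 and 1350.5 on 1 kPa, a ratio of means of 15.7. The KDEL libraries held 22218, 23029 and 21188 on 308 kPa and 6663, 4242 and 7183 on 1 kPa, a ratio of 3.67. The gels did not overlap in either line, and all 3 SUN1L libraries on the soft gel were below every other library. Its interaction was 2.42 ± 0.71 (SE) with an adjusted p of 0.115, 1.63 under median of ratios and 1.60 without SUN1L 1 kPa replicate 2.

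miR-20a-5p, miR-93-5p and miR-106b-5p, of the same seed, gave interactions of 1.78, 1.96 and 1.69 (0.98, 1.17 and 0.90 under median of ratios). miR-93-5p had 27539, 26516 and 31113 in SUN1L cells on 308 kPa and 5379.9, 1080.0 and 4755 on 1 kPa. The control line had 30744, 34299 and 32314 on 308 kPa and 14301, 11310.2 and 15144 on 1 kPa. All 4 had an unadjusted p under 0.05, with interactions between 1.69 and 2.42. The passenger arms miR-20a-3p and miR-93-3p, made from the same hairpins, were at 1.88 and 2.46. miR-93-3p was at 362, 289.8 and 427 in SUN1L cells on 308 kPa and 59.1, 5.93 and 29.3 on 1 kPa, and at 346, 493 and 466 in KDEL cells on 308 kPa and 159, 139 and 166 on 1 kPa. Its lowest value was in SUN1L 1 kPa replicate 2, without which the interaction was 1.59.

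**Figure D3:**
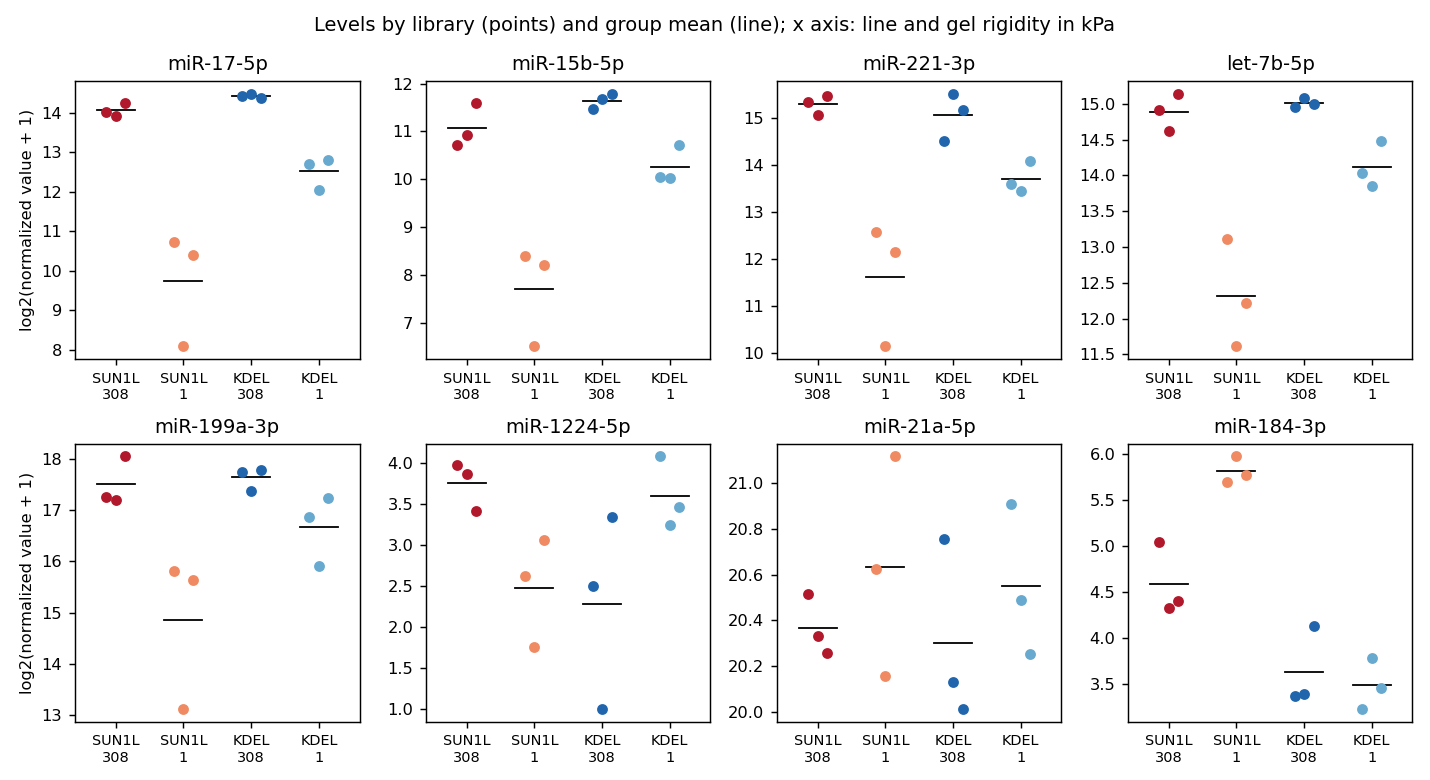
Log2(value + 1) of 8 miRNAs in the 3 libraries (points) of each group, with the group mean (line). In miR-17-5p, miR-15b-5p, miR-221-3p, let-7b-5p and miR-199a-3p the SUN1L libraries on 1 kPa are lowest. miR-1224-5p is lower on 308 kPa than on 1 kPa in the KDEL means only, miR-21a-5p overlaps between all groups, and miR-184-3p is highest in SUN1L cells on 1 kPa.

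The miR-15 and miR-16 family came next. Of 17 members 15 were tested, 12 rose in SUN1L cells (background 65.8%), and 1, miR-15a-3p, rose in KDEL cells. The median interaction was 1.35 (0.68 under median of ratios), with 13 positive, 2 negative and 7 higher at an unadjusted p under 0.05 (background 26.6%). Under median of ratios 2 were higher (background 8.93%) and 1 lower (background 7.19%) at such a p. The 5 members of the seed AGCAGCA printed above lay close together, between 1.47 and 1.98 (0.68 to 1.20 under median of ratios). miR-15b-5p had 1677, 1943 and 3102 in SUN1L cells on 308 kPa and 337, 90.1 and 296 on 1 kPa. KDEL values were 2836, 3267 and 3536 on 308 kPa and 1055, 1040.2 and 1670.0 on 1 kPa, so the gels were apart in both lines. Its interaction was 1.98 ± 0.62 (SE) with an adjusted p of 0.115, and 1.20 under median of ratios. miR-497-5p, made beside miR-195a-5p on chromosome 11, was at 676, 453 and 637 in SUN1L cells on 308 kPa and 118, 23.7 and 105 on 1 kPa, and at 1055, 458 and 598 in KDEL cells on 308 kPa and 383, 217 and 370.3 on 1 kPa (interaction 2.03, and 1.25 under median of ratios). miR-15a-5p and miR-195a-5p were at 1.65 and 1.77, and miR-16-5p and miR-322-5p at 1.47 and 1.51.

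miR-15a-3p, the called one, had 33.0, 27.2 and 52.9 in SUN1L cells on 308 kPa and 2.07, 1 and 3.995 on 1 kPa. It stood at 59.0, 50.8 and 62.3 in KDEL cells on 308 kPa and 9.21, 11.7 and 13.9 on 1 kPa. It rose in both lines, by 3.57 in SUN1L cells and 2.22 in KDEL cells (adjusted p = 4.56e-05 and 0.0177, limma), and its interaction was 1.35 ± 0.55 (SE). The KDEL call was lost with no pseudocount (smallest adjusted p of 0.095), with all 18 libraries and when any 1 of the 6 KDEL libraries was left out, each with 0 calls.

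Pairs of 1 seed could have unlike values, although the difference between members was not tested. miR-221-3p, which represses the cell cycle inhibitor p27, had 41147, 33911 and 44802 in SUN1L cells on 308 kPa and 6094, 1127 and 4533 on 1 kPa, and 23214, 46539 and 36459 in KDEL cells on 308 kPa and 12300.3, 11122 and 17281 on 1 kPa. In SUN1L cells the ratio of the gel means was 10.2, in KDEL cells 2.61. The interaction was 2.30 ± 0.69 (SE), or 1.51 under median of ratios. Its neighbour miR-222-3p had 16463, 13729.7 and 18384 in SUN1L cells on 308 kPa and 5392, 4506 and 6875 on 1 kPa. In the control line it had 7911, 19266 and 14484 on 308 kPa and 6347, 7386 and 8693 on 1 kPa, where the gels overlapped. Its interaction was 0.73, and -0.06 under median of ratios, where the sign turned. Over the 4 tested arms of both hairpins the median was 0.56 (-0.23 under median of ratios), and 3 rose in SUN1L cells (background 65.8%).

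miR-146a-5p, which is induced by NF-κB and represses Traf6 and Irak1, had 201, 194.6 and 188 in SUN1L cells on 308 kPa and 96.4, 35.6 and 41.3 on 1 kPa. Its control values were 60.6, 74.0 and 58.6 on 308 kPa and 126, 39.4 and 62.4 on 1 kPa. The stiff SUN1L libraries were above all others, and the KDEL gels overlapped. It rose by 1.88 in SUN1L cells (adjusted p = 0.00168), the KDEL difference was -0.08, and the interaction 1.95 ± 0.62 (SE), or 1.17 under median of ratios. miR-146b-5p has the same seed and was more abundant, at 12767, 13044 and 16568 in SUN1L cells on 308 kPa and 18311, 18064 and 34869 on 1 kPa, and at 12617, 8006 and 9519 in KDEL cells on 308 kPa and 17189, 11771 and 17212 on 1 kPa. Its differences were -0.69 and -0.62, and its interaction was -0.07 (-0.86 under median of ratios).

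The lowest p-values were mostly those of scarce miRNAs. miR-880-3p, from an X-linked cluster known from the testis, ranked first with an interaction of 2.22 ± 0.46 (SE) and an adjusted p of 0.097. It had 22.8, 16.3 and 21.2 in SUN1L cells on 308 kPa and 3.11, 3.56 and 2.66 on 1 kPa, and 1.55, 1.06 and 1 in KDEL cells on 308 kPa and 1, 1 and 1 on 1 kPa. The KDEL values were at the floor or at the worth of 1 read, so no response could be read there, and the interaction is in effect the SUN1L difference of 2.35. Under median of ratios the interaction was 1.34.

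miR-212-3p, which CREB induces together with miR-132, had 29.6, 16.3 and 18.3 in SUN1L cells on 308 kPa and 4.15, 3.56 and 3.995 on 1 kPa. Its KDEL libraries had 18.6, 20.1 and 20.1 on 308 kPa and 16.8, 12.8 and 14.6 on 1 kPa. The soft SUN1L libraries alone were apart from the rest, at 3.56 to 4.15, against at least 12.8 in every other library (interaction 1.75 ± 0.46 (SE), 1.08 under median of ratios). miR-1224-5p, within the bounds of Vwa5b2, was 1 of the 44 whose differences ran in opposite directions. It had 14.8, 13.6 and 9.62 in SUN1L cells on 308 kPa and 5.18, 2.37 and 7.32 on 1 kPa, and 4.66, 1 and 9.16 in KDEL cells on 308 kPa and 15.9, 8.51 and 10.01 on 1 kPa. Its SUN1L difference of 1.27 was called (adjusted p = 0.0421), its KDEL difference was -1.32, with 1 library at the floor and the gels overlapping, and its interaction was 2.59 ± 0.74 (SE), or 1.84 under median of ratios.

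miR-501-5p and miR-532-3p, made from hairpins within the bounds of the chloride transporter gene Clcn5 on the X chromosome, gave 2.09 ± 0.57 (SE) and 2.17 ± 0.66 (SE), and 1.36 and 1.39 under median of ratios. miR-501-5p had 168, 137 and 176 in SUN1L cells on 308 kPa and 16.6, 5.93 and 22.6 on 1 kPa, and 146, 191 and 162 in KDEL cells on 308 kPa and 63.7, 52.1 and 71.6 on 1 kPa. In both lines the gels were apart, and the soft SUN1L libraries were lower than the soft KDEL libraries. miR-194-5p, a miRNA best known from liver and gut, had the largest interaction of the 459, 2.60 ± 0.78 (SE) (1.83 under median of ratios). It was at 1048, 1037 and 1489 in SUN1L cells on 308 kPa and 117, 17.8 and 123 on 1 kPa, and at 1159, 1096 and 1176 in KDEL cells on 308 kPa and 413, 265 and 514 on 1 kPa, a ratio of gel means of 13.9 for SUN1L cells and 2.88 for KDEL cells. SUN1L 1 kPa replicate 2 was far below the other soft libraries, and without it the interaction was 1.71.

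miR-140-5p, the cartilage miRNA within the bounds of Wwp2, was abundant at 50844, 35035 and 41868 in SUN1L cells on 308 kPa and 11297, 2915 and 13862 on 1 kPa, and at 42141, 28809 and 38165 in KDEL cells on 308 kPa and 28027, 21041 and 35231 on 1 kPa. The KDEL gels overlapped, while in SUN1L cells they were apart, and the interaction was 2.06 ± 0.64 (SE) (1.27 under median of ratios). Another 5 among the 10 of lowest p were scarce: miR-1198-3p (2.24, and 1.66 under median of ratios), miR-505-5p (1.89 and 1.22), miR-7680-3p (1.88 and 1.37), miR-3102-5p.2-5p (1.85 and 1.09) and miR-1934-3p (1.72 and 1.18). miR-3102-5p.2-5p had 86.5, 78.9 and 61.6 in SUN1L cells on 308 kPa and 12.4, 17.8 and 18.0 on 1 kPa, and 29.5, 61.3 and 34.8 in KDEL cells on 308 kPa and 31.8, 26.6 and 37.7 on 1 kPa. The lowest stiff SUN1L library, at 61.6, was all but level with KDEL 308 kPa replicate 2, at 61.3, and above the remaining libraries. All 5 rose in SUN1L cells (background 65.8%) and had adjusted p-values of 0.115 for the interaction.

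let-7 and miR-98, which hold back Ras, Hmga2 and Lin28 and mark differentiated cells, lay at the level of all miRNAs as a family but were spread out. Of 21 tested members 16 rose in SUN1L cells (background 65.8%) and 0 were called in KDEL cells. The median interaction was 0.82, against 0.78 over all, and 0.09 against 0.03 under median of ratios. At an unadjusted p under 0.05, 6 were higher (background 26.6%), and 2 under median of ratios (background 8.93%). Among the 9 that share the seed GAGGUAG it ran from -0.02 (let-7f-5p) to 1.77 (miR-98-5p). let-7b-5p was at 30761, 25188 and 36187 in SUN1L cells on 308 kPa and 8896, 3129 and 4746 on 1 kPa, and at 31870.4, 34588 and 32765 in KDEL cells on 308 kPa and 16797, 14764 and 22899 on 1 kPa. All soft SUN1L libraries were below all soft KDEL libraries, and the interaction was 1.69 ± 0.49 (SE) (0.89 under median of ratios). let-7f-5p was at 104652, 148101 and 230251 in SUN1L cells on 308 kPa and 106599, 105637 and 148654 on 1 kPa, with both lines overlapping between gels. Its interaction of -0.02 was -0.81 under median of ratios. let-7d-5p was at 1.45, and let-7i-5p, another abundant member, at 0.18, which turned to -0.61. Reads of such close sequences can be shared between let-7 entries.

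The miRNAs that dominate a fibroblast differed among themselves. miR-21a-5p, the most abundant and known from fibrosis, had 1498154, 1318965 and 1251386 in SUN1L cells on 308 kPa and 1614028, 1168780.0 and 2274823 on 1 kPa, and 1772046, 1145384 and 1056311 in KDEL cells on 308 kPa and 1966662, 1470455 and 1250234 on 1 kPa. The groups overlapped, and the interaction was -0.01 ± 0.40 (SE), or -0.81 under median of ratios. miR-143-3p, typical of smooth muscle and fibroblasts, was at 0.13, turning to -0.67 under median of ratios. Likewise miR-30a-5p was at 0.25, turning to -0.54, miR-99b-5p at -0.35 (-1.15) and miR-100-5p at -0.32 (-1.12). In contrast miR-24-3p was at 0.98 (0.18 under median of ratios) and miR-199a-3p at 1.68 (0.89).

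miR-199a-3p has a copy within the bounds of Dnm3 and the noncoding gene Dnm3os on chromosome 1. It had 157841, 150155 and 271941 in SUN1L cells on 308 kPa and 57895, 8856 and 50859 on 1 kPa, and 220468, 170989 and 226275 in KDEL cells on 308 kPa and 118912, 61836 and 155667 on 1 kPa. The gels were apart in both lines, but SUN1L 1 kPa replicate 2 was the lowest library by far, and without it the interaction of 1.68 ± 0.79 (SE) was 0.81. The entry miR-199b-3p had nearly the same values and an interaction of 1.68. Reads of both entries can be shared. miR-199a-5p, the other arm, was at 0.83, near 0 (0.03) under median of ratios. All 6 members of the miR-199 and miR-214 cluster rose in SUN1L cells (background 65.8%), with a median interaction of 1.01 (0.21 under median of ratios). miR-214-3p was at 1.14 (0.35). In the miR-143 and miR-145 cluster, 3 of 4 rose (background 65.8%), with a median interaction of 1.20 (0.41), led by miR-143-5p at 1.46 (0.67).

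The miR-29 family represses collagens and other matrix genes. Of 7 tested members 6 rose in SUN1L cells (background 65.8%), with a median interaction of 1.07 (0.30 under median of ratios). miR-29a-3p had 149955, 84660.3 and 128811 in SUN1L cells on 308 kPa and 28540.3, 7113 and 26806 on 1 kPa, and 115057, 99633 and 106129.7 in KDEL cells on 308 kPa and 55514, 37290.3 and 55289 on 1 kPa. Its interaction was 1.61 ± 0.61 (SE) (0.81 under median of ratios), and miR-29c-3p was at 1.72 (0.95). miR-31-5p, which targets integrins and RhoA, was at 66328, 51600.1 and 77062 in SUN1L cells on 308 kPa and 11951, 2882 and 11075 on 1 kPa, and at 62686, 62994 and 68214 in KDEL cells on 308 kPa and 23842, 20818 and 37424 on 1 kPa. The gels were apart in both lines (interaction 1.86 ± 0.62 (SE), 1.06 under median of ratios). Over the 14 fibroblast markers tested the median was 0.80 (0.01 under median of ratios), at the level of all miRNAs. Of the 14, 11 rose in SUN1L cells (background 65.8%).

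Among miRNAs that the literature ties to adhesion, RhoA or matrix, 20 of 28 rose (background 65.8%) and 1 fell (background 2.4%) in SUN1L cells. In the interaction 6 were higher (background 26.6%) and 1 lower (background 0.654%) at an unadjusted p under 0.05. Under median of ratios 2 were higher (background 8.93%) and 4 lower (background 7.19%) at such a p. Their median interaction was 0.75 (-0.04 under median of ratios), next to that of all miRNAs. miR-185-5p, which targets RhoA and Cdc42, was at 1.50 (0.71 under median of ratios). Of 24 tested miRNAs known to respond to flow or stretch, 17 rose in SUN1L cells (background 65.8%) and 5 were higher at such a p (background 26.6%), with a median interaction of 0.85 (0.06 under median of ratios). With that scaling 1 was higher (background 8.93%) and 4 were lower (background 7.19%) at such a p. miR-155-5p, the inflammatory miRNA, had 6579, 4704 and 5983 in SUN1L cells on 308 kPa and 2461, 822 and 1947 on 1 kPa, and 4092, 6200.5 and 5324 in KDEL cells on 308 kPa and 2849, 2369.7 and 3570.2 on 1 kPa. It rose in SUN1L cells (adjusted p = 0.00067) and its interaction was 1.02 ± 0.53 (SE) (0.23). miR-762 was listed at the floor of 1 in all 12 libraries. The study's example network of SUN1L against KDEL cells on 1 kPa marks it as up-regulated, which these values do not show. The reason was not tested.

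Counts up in SUN1L cells are set against a background of 65.8% of all tested miRNAs. Other families ranged on either side of the shift shared by all. Above it were the miR-181 family, tied to lymphocyte differentiation, with 8 of 8 up in SUN1L cells and a median interaction of 1.22 (0.43 under median of ratios, miR-181b-5p 1.24 and miR-181d-5p 1.21). The p53-induced miR-34 family had 5 of 6 up and a median of 1.10 (0.31, miR-34a-5p 1.59 and miR-34c-3p 1.10). For miR-26, miR-103, miR-107, miR-148 and miR-152 it was 9 of 12 and 1.15 (0.36), with miR-107-3p at 1.94 and miR-103-3p, of the same seed, at 1.41. The miR-23, miR-27 and miR-24 clusters had 10 of 11 up and a median of 0.98 (0.18), with miR-23a-3p at 1.88 and miR-27a-3p at 1.37.

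Below it lay the miR-30 family, with 7 of 11 up in SUN1L cells (background 65.8%). Its median interaction was 0.35, which turned to -0.44 under median of ratios. Here too values of 1 seed were spread out: miR-30c-5p was at 1.44 and miR-30e-5p at 1.51 (0.65 and 0.72 under median of ratios), against 0.25 for miR-30a-5p. The miR-99, miR-100 and miR-125 family had a median of 0.64 (-0.15), in which miR-125b-5p stood at 1.55 ± 0.49 (SE) and miR-125a-5p at 1.53. miR-125b-5p, the homolog of worm lin-4, had 218184, 163305 and 197320.5 in SUN1L cells on 308 kPa and 43648, 14468 and 40509 on 1 kPa, and 156316, 179974 and 164217 in KDEL cells on 308 kPa and 73197, 70355 and 82671 on 1 kPa. The miR-130 and miR-301 family was at 0.72 (-0.07). The miR-216 and miR-217 cluster was at 0.74 (-0.05), and the 5 tested miRNAs of the imprinted Dlk1-Dio3 domain at 0.69 (-0.0019). Among Hox cluster miRNAs (0.94, and 0.15 under median of ratios) miR-196b-5p was at 1.69 and miR-10b-3p at 1.92.

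**Figure D4:**
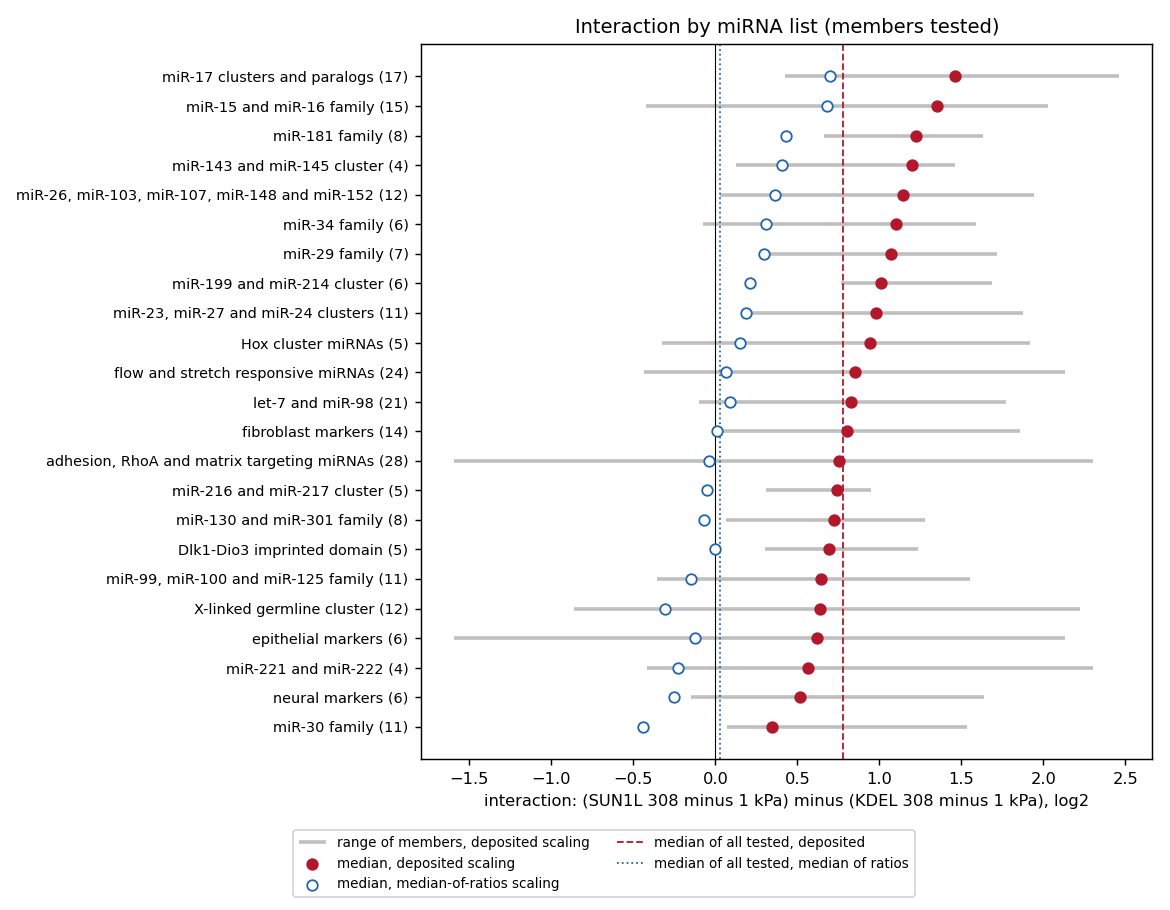
Median interaction of each list with at least 4 tested members under the deposited scaling (filled) and under median-of-ratios scaling (open), with the range of its members (grey) and the median of all 459 under each scaling (dashed 0.78, dotted 0.03). The miR-17 and miR-15 lists lie highest under both scalings, and the miR-30 family lowest.

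In all, 3 miRNAs were lower in the interaction at an unadjusted p under 0.05. miR-184-3p, a miRNA of lens and cornea, had 31.9, 19.1 and 20.2 in SUN1L cells on 308 kPa and 50.8, 61.6 and 53.3 on 1 kPa, and 9.32, 9.52 and 16.5 in KDEL cells on 308 kPa and 8.38, 12.8 and 10.01 on 1 kPa. It fell on the stiff gel in SUN1L cells (log2 difference -1.22, adjusted p = 0.00664), whereas the KDEL gels overlapped. Its interaction was -1.36 ± 0.50 (SE) with an adjusted p of 0.127, -2.17 under median of ratios and -1.28 without SUN1L 1 kPa replicate 2. miR-200a-5p had 14.8, 5.44 and 13.5 in SUN1L cells on 308 kPa and 25.9, 43.9 and 43.3 on 1 kPa, and 10.9, 9.52 and 4.58 in KDEL cells on 308 kPa and 7.54, 9.57 and 9.24 on 1 kPa. The soft SUN1L libraries were the highest of all 12 (interaction -1.59 ± 0.60 (SE), -2.38 under median of ratios). miR-3474 was at 5.69, 10.9 and 7.69 in SUN1L cells on 308 kPa and 20.7, 29.6 and 19.98 on 1 kPa, and at 18.6, 7.40 and 8.24 in KDEL cells on 308 kPa and 13.4, 11.7 and 3.08 on 1 kPa (interaction -1.79 ± 0.69 (SE), -2.54 under median of ratios).

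The next 7 by p in this direction were miR-3535 (-0.88), miR-1981-5p (-0.92), miR-5099 (-0.79), miR-3064-5p (-0.92), miR-1964-3p (-0.77), miR-881-3p (-0.86) and miR-183-5p (-0.53), with unadjusted p-values of 0.0783 to 0.225. miR-3535, within the bounds of the nucleolin gene Ncl, had 1459.5, 1033 and 1180.1 in SUN1L cells on 308 kPa and 2793, 3615 and 1993 on 1 kPa, and 1201, 826 and 809 in KDEL cells on 308 kPa and 1497, 1123 and 858 on 1 kPa. It fell in SUN1L cells (adjusted p = 0.00624), and the KDEL gels overlapped. miR-5099 and miR-1964-3p also fell in SUN1L cells, by 1.20 and 1.12 on the log2 scale. Both miR-10a-5p and miR-10b-5p, which lie in the Hox clusters, were slightly negative, at -0.33 and -0.21, as were miR-99b-5p and miR-100-5p.

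The X-linked germline cluster was expressed in SUN1L cells and nearly absent from KDEL cells. Of 32 members 12 were tested, and all 12 were below 10 in every KDEL library, so they passed the filter through SUN1L libraries alone. Their levels changed between gels in both directions: 5 rose (background 65.8%) and 1 fell (background 2.4%) in SUN1L cells. The median interaction was 0.64, turning to -0.31 under median of ratios. The 3 entries of the miR-465 3p arm (a, b and c) carried equal values, 34.1, 23.1 and 25.97 in SUN1L cells on 308 kPa and 10.4, 7.11 and 7.32 on 1 kPa, and 1, 1 and 1.83 in KDEL cells on 308 kPa and 1, 1.06 and 1 on 1 kPa, with an interaction of 1.48 ± 0.48 (SE). In contrast miR-881-3p had 135, 149.7 and 109.6 in SUN1L cells on 308 kPa and 79.8, 129 and 135 on 1 kPa, and 7.77, 3.17 and 4.58 in KDEL cells on 308 kPa and 4.19, 1.06 and 1 on 1 kPa, with the SUN1L gels overlapping and an interaction of -0.86. Near the floor a log2 difference shrinks, so as a set the interactions of this cluster mainly describe the SUN1L line. Gel differences of the 12 members had a median of 0.61 for that line, against 0.07 for the control line. miR-881-3p was an exception, since its negative interaction came mainly from the control line. Its KDEL values were all below 10 and reached the floor of 1 on the soft gel.

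Markers of other cell types did not stand apart as lists. Of 12 epithelial markers 6 were tested, with a median interaction of 0.62 (-0.12 under median of ratios), from miR-200a-5p at -1.59 to miR-205-5p at 2.13. miR-205-5p had 64.8, 46.3 and 98.1 in SUN1L cells on 308 kPa and 14.5, 2.37 and 19.3 on 1 kPa, and 66.8, 22.2 and 65.9 in KDEL cells on 308 kPa and 40.2, 10.6 and 62.4 on 1 kPa, where the KDEL gels overlapped. miR-429-3p, of the miR-200 family, was at 1.56. Of 17 muscle markers 3 were tested (0.60), of 7 blood cell markers 1 (0.35) and of 10 neural markers 6 (0.51), and all 3 medians were negative under median of ratios. The muscle markers miR-133b and miR-208 and the neural miR-124 stayed at or next to 1. In contrast miR-206-3p, also of muscle, was at 319 to 955 and the neural miR-9-5p at 6423 to 20103 over the 12 libraries, and miR-451a, of erythroid cells, was at 49.9 in SUN1L 1 kPa replicate 3 and at 5.44 or less elsewhere. The part of these levels in the interaction was not tested.

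The ratio of the arms of 1 hairpin depends less on a library's scaling than a level does, because 1 factor per library divides both arms before the pseudocount is added (quantile normalization uses no such factor). It was examined after the data had been seen. For 127 hairpins both arms were tested. Between the gels a change of the ratio was called for 71 in SUN1L cells (55.9%) and for 0 in KDEL cells (limma, adjusted p under 0.05). The KDEL count of ratios is not given under other settings, and the KDEL count of levels above rested on the fit. The 0 therefore does not show unchanged ratios: for miR-708 and miR-532, given below, the gels were apart in KDEL cells too. The interaction of the ratio was called for 0 (0%), with 30 at an unadjusted p under 0.05 (23.6%, where 5% of 127 is 6.35) and a smallest adjusted p of 0.133. The SUN1L calls were 74 under median of ratios and 69 under quantile normalization, and the smallest adjusted p of the interaction was 0.134 and 0.067. With the runs of library numbers as a term 9 interactions were called, 9 under median of ratios and 6 under quantile normalization. For 21 hairpins the arms had interactions of opposite sign under the deposited scaling, and this count is not given under the others. Counts of calls on this ratio shifted with the libraries used: leaving out SUN1L 1 kPa replicate 1 gave 18.

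The miR-708 hairpin led by p. miR-708-5p, which shares its seed AGGAGCU with miR-28a-5p, had 978, 1162 and 1133 in SUN1L cells on 308 kPa and 213, 68.8 and 211 on 1 kPa, and 704, 625 and 677 in KDEL cells on 308 kPa and 301, 322.3 and 358 on 1 kPa. miR-708-3p had 532, 430.0 and 455 in SUN1L cells on 308 kPa and 566, 685 and 869 on 1 kPa, and 371, 249.6 and 288 in KDEL cells on 308 kPa and 321, 331 and 320.3 on 1 kPa. So the 5p arm was the more abundant in both lines on the stiff gel, while in SUN1L cells on the soft gel the 3p arm was. The log2 ratio of 5p over 3p was 0.877, 1.43 and 1.31 in SUN1L cells on 308 kPa and -1.41, -3.30 and -2.04 on 1 kPa, and 0.921, 1.32 and 1.23 in KDEL cells on 308 kPa and -0.0931, -0.0375 and 0.160 on 1 kPa. Its interaction was 2.31 ± 0.58 (SE, adjusted p = 0.133), made up of 1.86 for the 5p arm and -0.45 for the 3p arm. Without SUN1L 1 kPa replicate 2 it was 1.78. The change of ratio in SUN1L cells, 3.46, was called (adjusted p = 0.000104), and that in KDEL cells, 1.15, was not (adjusted p = 0.134).

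Others ran the opposite way. For miR-532 the ratio was 3.81, 4.22 and 3.92 in SUN1L cells on 308 kPa and 6.56, 8.65 and 7.95 on 1 kPa, and 3.07, 3.61 and 3.62 in KDEL cells on 308 kPa and 4.22, 5.46 and 4.87 on 1 kPa, with an interaction of -2.32 ± 0.67 (SE). The abundant arm miR-532-5p had an interaction of -0.14 and miR-532-3p, the scarcer arm, of 2.17. The scarcer arm also had the larger interaction in miR-10b (-2.13 ± 0.66), where miR-10b-5p was at -0.21 and miR-10b-3p at 1.92, and in miR-1198 (-2.04 ± 0.70). In miR-221 (-1.91 ± 0.60) the abundant 3p arm had the larger one, and in miR-31 (1.74 ± 0.56) the abundant 5p arm did. miR-200a (-2.36 ± 0.69) and miR-222 (-1.15 ± 0.37) had arms of opposite sign under the deposited scaling. The sign of an arm depends on the scaling: miR-222-5p was at -0.41 and miR-222-3p at 0.73, which turned to -0.06 under median of ratios. In each of these 7 the SUN1L change of ratio was called and the KDEL one was not, although the test of the difference between the lines itself was not passed.

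**Figure D5:**
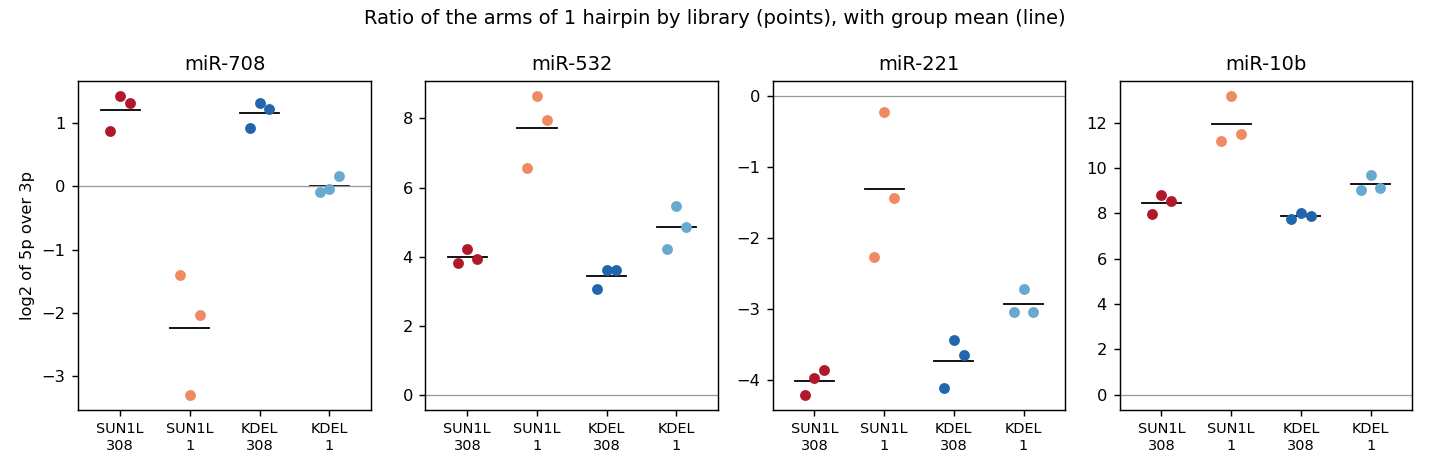
Log2 ratio of the 5p over the 3p arm of 4 hairpins in the 3 libraries (points) of each group, with the group mean (line). In miR-708 the SUN1L libraries on 1 kPa lie below 0 at -1.41, -3.30 and -2.04, while in miR-532, miR-221 and miR-10b they lie above the other groups.

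Values by sequence are given as descriptions. GC content, known for 407 of the 459, had a Spearman's rho of -0.03 with the interaction, and the mean level a rho of 0.11, both across miRNAs. The median was 0.88 for the 206 5p arms and 0.77 for the 227 3p arms. By first base it was 0.95 for A (105 miRNAs), 0.83 for C (93), 1.11 for G (42) and 0.69 for U (167). Of 44 seeds with at least 2 tested members, the 4 members of the miR-181 seed ACAUUCA lay between 1.15 and 1.50 and the 4 of the miR-25 and miR-92 seed AUUGCAC between 0.42 and 1.11.

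The library numbers in the labels fall into 3 runs, 37 to 40, 43 to 46 and 49 to 52, each with 1 library of every group. The labels do not say what the numbers mark. Within the runs, under the deposited scaling, the median interaction was 0.56, 1.09 and 0.69. Of 459 miRNAs 290 were positive in all 3 (63.2%), against 17 negative in all 3 (3.7%). These counts hold the shift shared by most miRNAs. Under median of ratios 233 of 459 interactions were positive over the 12 libraries, and values by run are not given there. miR-17-5p gave 1.56, 3.41 and 2.29 by run, miR-221-3p 1.84, 2.84 and 2.23 and miR-708-5p 0.97, 3.11 and 1.50, whereas miR-184-3p gave -0.79, -1.26 and -2.02.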

How the data were processed

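Small RNA was sequenced at 50 bases, single end, from 18 libraries. The authors trimmed the 3′ adapter, dropped reads under 15 nt, checked quality with FastQC and counted, in AvadisNGS, reads whose 5′ end matched a mature miRNA of miRBase release 20. The deposited table holds the authors' normalized signal per miRNA. The normalization is not given in the sources used here, and it is not known how it treats a shift of most miRNAs. Per the labels the build is mm9, but positions fit GRCm38, which is used. Divided by 1 factor per library, values above the floor came out whole (tolerance 0.01) at low read numbers, where this was checked. The depths are sums of the values so divided and rounded, high ones included. In 5 of the 12 libraries 1 read is worth under 1, so that a value of 1 there may be 0 or 1 read.

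Copies of 1 mature name were reduced to the entry of highest mean. For the 459 miRNAs that reached 10 in 3 or more of the 12 libraries, log2(value + 1) was fitted with limma (version 3.58.1, R 4.3.3, with a trend) as 4 groups, and p-values were adjusted by Benjamini-Hochberg, with calls under 0.05. Differences of low values are understated on this scale. The fit was tested on simulated data. Named miRNAs are the 10 of lowest p in each direction, the 10 of highest mean, 2 to 4 members of lowest p in each list, the 5 of lowest p with a run covariate, and miR-880-3p, miR-155-5p and miR-762. Other members of printed seeds, miR-15a-3p, marker miRNAs and arms of 1 hairpin were added after their values were seen. The comparison, members and lists were chosen with earlier results of these data known.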

Additional observations from a re-analysis of the deposited data

How the results depend on the processing

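The 0 interaction calls became 1 with a pseudocount of 10, 1 without the filter, 4 with all 18 libraries, 23 with 17 of them (without the shallowest blebbistatin library), 6 with array weights and 0 to 5 when 1 library was left out, the 5 without SUN1L 1 kPa replicate 1. The median interaction of 0.78 was 0.031 under median of ratios, 0.013 under quantile normalization, 0.215 without the filter and 0.022 under median of ratios without SUN1L 1 kPa replicate 2, the last chosen after seeing the data. Leaving out 1 library gave 0.48 to 1.01, the lowest without SUN1L 1 kPa replicate 2. Calls between gels in KDEL cells (1) were 2 under median of ratios, 8 under quantile normalization, 0 with no pseudocount, 32 with a pseudocount of 10, 0 with a filter at 100, 0 with 18 libraries, 34 with 17, 194 with array weights, 35 under median of ratios without SUN1L 1 kPa replicate 2, and 0 to 143 with 1 library left out, the 143 without that library. In SUN1L cells (313) they were 204 with the filter at 100, 19 with 18 libraries, 109 under Bonferroni, 162 under median of ratios without SUN1L 1 kPa replicate 2 and 265 to 321 with 1 library left out. Ratios of arms (0 interaction calls) gave 8 with array weights and 0 to 18 with 1 library left out. Their 71 SUN1L calls were 23 with 18 libraries, 30 under Bonferroni and 57 to 76 with 1 library left out. The cause was not tested.

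The labels give no replicate numbers, so the run of library numbers served as a replicate block. Departures from the group means correlated at a mean r of 0.32 within runs (0.09 to 0.55, 18 pairs) and -0.16 between them (36 pairs). Departures sum to 0 within a group, so the negative value largely follows from the positive one and adds no evidence of its own. All 18 correlations within runs were positive, but not all were over 0.1 and the labels do not say what the runs are, so the block is given as an alternative. The block gave 68 interaction calls, all higher (14.8%), 7 of them of the 17 miR-17 members, but 0 with either other scaling, where the median was 0.031 (median of ratios) and 0.013 (quantile). It gave 96 KDEL calls (42 and 26 with these scalings) and 9 arm interactions (9 and 6).

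Of 83 named miRNAs 74 kept their direction in all settings. let-7i-5p turned to -0.61 (median of ratios), -0.079 (quantile), the same with the block, and -0.37 (median of ratios without SUN1L 1 kPa replicate 2). In the same order of settings miR-222-3p turned to -0.061 and -0.43. Under median of ratios miR-143-3p turned to -0.67 and miR-30a-5p to -0.54, the same with the block, and without SUN1L 1 kPa replicate 2 to -0.46 and -0.49, with miR-199a-5p at -0.21. With 1 library left out, let-7f-5p ranged from -0.31 to 0.26, miR-146b-5p from -0.23 to 0.24, miR-21a-5p from -0.25 to 0.23, miR-30a-5p from -0.016 to 0.47 and miR-532-5p from -0.26 to 0.019, so the sign of these rests on single libraries. Count tests (edgeR, DESeq2) were not run, because the floor of 1 hides low reads.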
